A study of Mus musculus with 50 samples.

Results

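Islr2, Gpa33, Calca, Pla2g1b, Atp2a3, Mid1ip1, Septin1, Fblim1, Kbtbd11 and Xaf1 are the 10 coding genes described here, out of 19455 genes in the deposited table. They were selected on their measured levels at 0 h, as coding genes with the largest falls in cells without the m6A readers Ythdf1, Ythdf2 and Ythdf3, against WT cells or against cells without a single reader. The values at 0 h, and any change measured from 0 h, are therefore given as a description with no test. The tests below compare libraries collected after 4 h and 8 h in actinomycin D, which the choice did not use, although an alternative fit on all times also took its spread from the 0 h libraries. The drug blocks transcription, so RNA at 4 h and 8 h is what is left of earlier RNA in the same genotypes. A gene low at 0 h can thus stay low, and a later call is not an independent check of its fall at 0 h.

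The cells were KH2, a mouse embryonic stem (ES) cell line from a C57BL/6 x 129/Sv cross, grown with serum and LIF on gelatin. The 5 genotypes were WT, the single knockouts Ythdf1_KO, Ythdf2_KO and Ythdf3_KO, and Triple_KO, which lacks all 3 readers. Every culture received 5 µM actinomycin D, a blocker of transcription, and was collected at 0, 4 or 8 h, so that no group at 4 h or 8 h is free of the drug. RNA was read from its poly(A) end. Each genotype had replicates A and B, with a pair of duplicate libraries per replicate at 0 h and 8 h and 1 library at 4 h, or 50 libraries in all. The labels do not say whether A and B were separate cultures or how many clones stood for a knockout, so p-values measure a spread that may be technical, and a knockout and the clone that carries it cannot be told apart.

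m6A is a methyl mark on adenosines of mRNA, found most often near stop codons and in long internal exons. The YTHDF proteins bind it in the cytoplasm and are best known for recruiting the CCR4-NOT deadenylase, which shortens the poly(A) tail and starts decay of the marked mRNA. In mouse ES cells m6A is known for limiting the lifetime of many transcripts, those of pluripotency factors among them.

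To show what the readers could meet in these transcripts, a common form of the m6A motif, GGACT in DNA letters, was searched on the sense strand within 200 bases on either side of the last coding base. It occurred in 4 of the 10 genes, Islr2, Pla2g1b, Fblim1 and Xaf1, and in 40.5% of 8281 genes measured at 0 h, so the share among the 10 was like that of all genes. The 25-base windows below, from GENCODE M21 transcripts on GRCm38, are printed 5′ to 3′ with the motif in capitals, and the Fblim1 match is not printed because its window crosses an exon junction.
Islr2, 3′ UTR, 62 bases after the last coding base, chr9:58197662-58197686, minus strand: agggacggcaGGACTttaacaccct
Islr2, 3′ UTR, 81 bases after the last coding base, chr9:58197643-58197667, minus strand: caccctcgcgGGACTccgccctacc
Pla2g1b, coding sequence, 99 bases before the last coding base, chr5:115474518-115474542, plus strand: acaaatgcgaGGACTtcatctgcaa
Xaf1, 3′ UTR, 114 bases after the last coding base, chr11:72312110-72312134, plus strand: tccctcttctGGACTgtcagaagac
The other 6 genes had no GGACT in that window. A match is a sequence of letters and does not show that the site carries m6A.

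Levels are in FPM, reads of a transcript scaled to the total of its library, as the authors deposited them. Library totals ranged from 796921 to 2341410 reads (median 1364119), and 1 read was worth 0.427 to 1.25 FPM. The 10 genes rested on few reads, at 0 h on 12 to 87 reads per WT library and 3 to 41 per Triple_KO library, so single libraries carry a wide counting error. The deleted parts of the reader genes are not given in the sources used here and reads came from 3′ ends, so the readers' levels may not check the labels. At 0 h Ythdf1, Ythdf2 and Ythdf3 had means of 42.5, 86.2 and 21.5 FPM in Triple_KO and 57.2, 51.5 and 23.2 FPM in WT. In its own single knockout Ythdf1 read 56.9 FPM and Ythdf3 23.8 FPM, close to WT, while Ythdf2 read 28.9 to 38.9 FPM, below the WT libraries at 40.5 to 58.6 FPM. Summed ES cell markers were lower in Triple_KO at 0 h (2519 to 2608 FPM for 10 of 10 genes, Pou5f1 and Sox2 among them, against 2992 to 3178 FPM in WT), as at 8 h (2177 to 2358 against 2428 to 2522 FPM). The 0 h sum was lower mainly through abundant genes, with Dppa5a at 612 against 783 FPM, Pou5f1 at 707 against 845 and Tdgf1 at 231 against 334. Sox2 (129 in both), Klf4 (151 against 150) and Zfp42 (113 against 114) were alike. In the single knockouts the ES marker sums ran from 2893 to 3304 FPM at 0 h. At 8 h they overlapped Triple_KO, at 2165 to 2315 FPM in Ythdf1_KO, 2092 to 2434 in Ythdf2_KO and 2109 to 2236 in Ythdf3_KO. For Triple_KO against WT at 8 h, 9 ES markers were tested, with a median of 0.34 beside 0.44 for all genes. Of them 4 were called higher (Esrrb, Klf4, Utf1 and Tfcp2l1) and 2 lower (Tdgf1 and Dppa5a), beside 33.5% and 1.71% of all genes. With TMM or median scaling 1 was higher (Esrrb) and 3 were lower. The shares of all genes were then 11.1% and 8.38% with TMM and 8.80% and 14.1% with median scaling. Nanog had a mean of 2.58 FPM or less in each genotype at 0 h. At 0 h summed feeder fibroblast markers were 308 to 359 FPM in Triple_KO and 161 to 180 FPM in WT (10 of 10 genes listed, Lum at 0 in both). Summed trophectoderm markers were 262 to 282 and 109 to 128 FPM (7 of 7 genes listed, Elf5 at 0 in both). The feeder sum rested mainly on Acta2 (131 against 73.3 FPM in WT) and Tagln (97.2 against 53.7). Col1a1 (38.4 against 16.2), Thy1 (18.9 against 9.76), Col1a2 (15.1 against 7.58) and S100a4 (13.1 against 7.35) were higher too, and no listed feeder marker was lower. The trophectoderm sum rested mainly on Krt8 (145 against 75.4 FPM) and Krt18 (101 against 34.4). Eomes was not higher (3.69 against 3.78 FPM), while Gata3 (16.0 against 6.93) and Cdx2 (4.26 against 1.02) were. At 8 h the feeder sums were 424 to 532 and 322 to 357 FPM and the trophectoderm sums 266 to 353 and 111 to 127 FPM. Ythdf1_KO overlapped Triple_KO at 8 h, with feeder sums of 444 to 520 and trophectoderm sums of 245 to 307 FPM. Ythdf2_KO and Ythdf3_KO had feeder sums below WT, at 194 to 216 and 248 to 287 FPM. Their trophectoderm sums were 160 to 174 and 72.2 to 90.9 FPM. At 0 h the trophectoderm sums were 174 to 190 FPM in Ythdf1_KO, 166 to 184 in Ythdf2_KO and 65.7 to 76.3 in Ythdf3_KO. The part of these marker differences in the falls described below was not tested. In bulk RNA fewer cells of a type and less RNA per cell cannot be told apart.

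**Figure D1:**
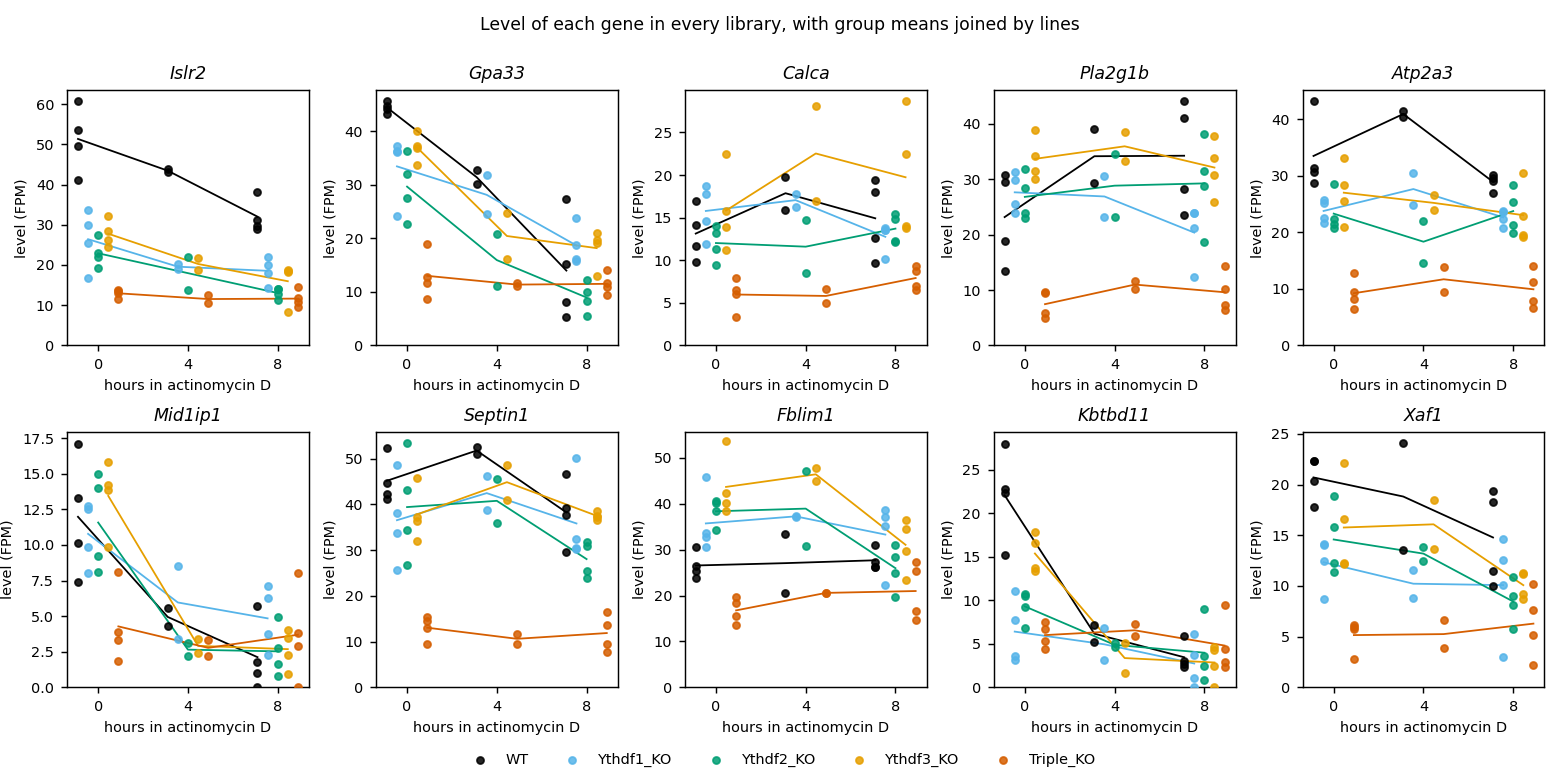
Level in FPM (vertical axes, each from 0) of the 10 genes against hours in actinomycin D, 1 point per library, coloured by genotype and shifted sideways for clarity, with lines through group means (4 libraries at 0 h and 8 h, 2 at 4 h). Triple_KO stays low and flat in most panels, while WT Gpa33, Mid1ip1 and Kbtbd11 drop to the Triple_KO level by 8 h.

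Septin1, Pla2g1b, Atp2a3, Islr2, Xaf1 and Calca were still lower in Triple_KO than in WT at 8 h, by 0.80 to 1.75 on the log2(FPM + 1) scale. Gpa33, Mid1ip1 and Kbtbd11 were not called at 8 h. From 0 h to 8 h they changed by -1.84, -2.34 and -2.41 in WT, where the median gene changed by -0.81. In Triple_KO they changed by -0.13, -0.42 and -0.40, where the median was -0.39. Mid1ip1 and Kbtbd11 were also near the floor of single reads at 8 h. Why these genes were not called was not tested. Fblim1 was called at 8 h against the single knockouts (-0.52) and not against WT (-0.43), and whether these differ was not tested.

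The counts at 0 h describe the choice. Every Triple_KO library lay below every WT library for 9 of the 10 genes (7.19% of the 8697 genes that passed the filter of 5 FPM in 2 replicate means) and below every single-knockout library for 8 of 10 (2.21%). The fall against WT ran from -0.64 for Fblim1 to -1.90 for Islr2, and that against the single knockouts from -0.59 for Kbtbd11 to -1.88 for Pla2g1b, where the median over all genes against WT was 0.07. Pla2g1b, Septin1 and Mid1ip1 ranked at places 1, 2 and 3 from the lowest of 8409 coding genes against the single knockouts, and Islr2 was the highest-ranked of the 10 against WT, at place 4. Genes with falls as large that are not among the 10 were Rapgef3 (-2.26), Aire (-2.17), Zmat4 (-1.98), Ppm1j (-1.89) and Ceacam20 (-1.86), with WT means of 6.26 to 11.6 FPM.

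Of the 10, 4 encode proteins of the cell surface or secreted proteins. Islr2, also known as Linx, is a leucine-rich repeat and immunoglobulin-domain membrane protein of axon growth (GRCm38.p6 chr9:58196297-58204319). At 0 h its WT libraries read 53.7, 60.8, 41.2 and 49.6 FPM, those of Ythdf1_KO 29.9, 16.7, 33.6 and 25.5, of Ythdf2_KO 23.0, 19.2, 21.9 and 27.6 and of Ythdf3_KO 24.4, 26.2, 28.4 and 32.1, and those of Triple_KO 13.5, 13.8, 13.0 and 11.6. The single knockouts thus stood between WT and Triple_KO with no overlap on either side. At 8 h the WT libraries read 29.7, 38.1, 31.2 and 29.0 FPM and the Triple_KO libraries 9.52, 14.4, 10.8 and 11.8, still apart, and Triple_KO was lower by -1.39 ± 0.26 (adjusted p = 1.14e-05). Against the single knockouts, whose 12 libraries at 8 h spanned 8.40 to 21.9 FPM, the Triple_KO libraries overlapped and the difference was -0.39 ± 0.21 (adjusted p = 0.113).

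Gpa33, the A33 antigen of intestinal epithelium, is an immunoglobulin-family membrane protein (chr1:166130221-166166510). It read 43.2, 45.6, 44.2 and 44.7 FPM in WT at 0 h and 11.7, 12.7, 18.9 and 8.67 FPM in Triple_KO. The 4 h libraries were still apart, at 30.1 and 32.7 FPM in WT and 11.01 and 11.7 FPM in Triple_KO, a difference of -1.39 ± 0.31 (adjusted p = 3.76e-04). By 8 h WT had spread to 27.4, 8.03, 15.2 and 5.28 FPM, on both sides of Triple_KO at 11.7, 10.8, 14.0 and 9.42 FPM. That spread lay between duplicate libraries of 1 replicate, at 27.4 and 8.03 FPM for A and at 15.2 and 5.28 FPM for B. The difference at 8 h was -0.04 ± 0.30 (adjusted p = 0.938), with a 95% interval of -0.63 to 0.56, and its sign turned to 0.30 without WT replicate A. It was further below 0, and still not called, at -0.39 with TMM scaling (adjusted p = 0.412), -0.52 with median scaling (adjusted p = 0.219), -0.65 with edgeR (adjusted p = 0.0972) and -0.69 with DESeq2 (adjusted p = 0.291), so the size of a remaining gap depends on the scaling.

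Calca gives the hormone calcitonin or, by an alternative 3′ end, the neuropeptide CGRP (chr7:114625981-114636910). It was the 1 gene of the 10 with distinct transcripts in the table, and nearly all its reads lay on the 5-exon CGRP form: 12.1 ± 3.41 FPM (SD, n = 4) in WT and 5.83 ± 1.72 FPM in Triple_KO at 0 h, against 1.07 ± 0.99 and 0.15 ± 0.31 FPM for the 4-exon calcitonin form. The sum of both forms read 12.6, 18.1, 19.4 and 9.68 FPM in WT at 8 h and 8.79, 9.38, 7.01 and 6.48 FPM in Triple_KO. The highest Triple_KO library, at 9.38 FPM, lay just under the lowest WT library, at 9.68 FPM, and the difference was -0.80 ± 0.29 (adjusted p = 0.0230). That call was lost without WT replicate A (adjusted p = 0.107), WT replicate B (adjusted p = 0.0553) or Triple_KO replicate B (adjusted p = 0.222). At 4 h the difference was larger, -1.47 ± 0.37 (adjusted p = 0.00170).

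Pla2g1b, the phospholipase A2 best known as a secreted digestive enzyme of the pancreas (chr5:115466142-115474722), kept one of the widest gaps. Its WT libraries at 0 h read 29.6, 13.5, 18.8 and 30.8 FPM, and all 12 single-knockout libraries lay between 23.0 and 38.9 FPM. Triple_KO read 4.91, 9.41, 9.72 and 5.78 FPM. At 8 h WT read 41.1, 44.1, 23.6 and 28.2 FPM and Triple_KO 7.32, 14.4, 10.2 and 6.48 FPM, which was 28.0% of the WT mean. The groups did not overlap, and the difference of -1.75 ± 0.24 (adjusted p = 6.91e-09) ranked at place 4 from the lowest of 7033 genes tested. Against the single knockouts it was -1.41 ± 0.19 (adjusted p = 5.57e-09), although 1 Ythdf1_KO library, at 12.4 FPM, fell below the highest Triple_KO library, at 14.4 FPM.

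Another 4 genes act inside the cell, in calcium transport, lipid synthesis and the cytoskeleton. Atp2a3 encodes SERCA3, a pump that returns calcium from the cytosol to the endoplasmic reticulum (chr11:72961169-72993043). It read 31.5, 28.7, 30.6 and 43.3 FPM in WT at 0 h and 12.9, 9.41, 6.48 and 8.19 FPM in Triple_KO. The single knockouts, at 20.8 to 33.1 FPM, lay between them in mean but reached into the WT range in Ythdf3_KO. At 8 h the values were 29.7, 30.1, 27.0 and 29.0 FPM and 6.59, 7.94, 14.0 and 11.2 FPM. No Triple_KO library at 8 h reached the lowest single-knockout library of 19.1 FPM, and Triple_KO was lower by -1.50 ± 0.24 (adjusted p = 4.43e-07) against WT and by -1.18 ± 0.19 (adjusted p = 6.93e-07) against the single knockouts.

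Septin1, a member of the septin family of filament-forming GTPases (chr7:127212709-127232985), had the smallest p-values of the 10 under the drug. Its WT libraries read 52.5 and 51.0 FPM at 4 h and 37.7, 39.1, 29.5 and 46.6 FPM at 8 h. Triple_KO read 11.7 and 9.48 FPM at 4 h and 9.52, 13.7, 16.6 and 7.65 FPM at 8 h. The 12 single-knockout libraries at 8 h spanned 24.0 to 50.2 FPM, all above Triple_KO. The differences at 4 h were -2.19 ± 0.24 (adjusted p = 8.66e-13) against WT and -1.91 ± 0.19 (adjusted p = 4.00e-14) against the single knockouts, the latter the lowest of all 8002 genes tested. At 8 h they were -1.65 ± 0.20 (adjusted p = 2.68e-10) and -1.46 ± 0.16 (adjusted p = 8.83e-12).

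Fblim1, migfilin, links filamin to cell-matrix adhesions (chr4:141576062-141606052). At 0 h it was higher in the single knockouts, at 30.7 to 53.6 FPM, than in WT, at 26.5, 25.4, 30.6 and 23.8 FPM, and lowest in Triple_KO, at 13.5, 15.5, 18.4 and 19.7 FPM. At 8 h WT read 26.3, 31.1, 26.2 and 27.3 FPM and Triple_KO 14.6, 16.6, 27.4 and 25.3 FPM, with replicate B of Triple_KO at the WT level. The difference from WT, -0.43 ± 0.21 (adjusted p = 0.112), did not pass, but did with TMM scaling (-0.80, adjusted p = 0.00404), median scaling (-0.93, adjusted p = 6.12e-04), edgeR (-0.80, adjusted p = 0.00218) and DESeq2 (-0.84, adjusted p = 0.0326) on recovered reads, and without Triple_KO replicate B (-0.79, adjusted p = 0.0225). The difference from the single knockouts, -0.52 ± 0.17 (adjusted p = 0.0113), passed, and did not without Triple_KO replicate A (-0.16, adjusted p = 0.599) or without the filter on low values (adjusted p = 0.0734).

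Mid1ip1, also called MIG12, binds acetyl-CoA carboxylase and raises fatty acid synthesis (chrX:10717365-10719702). It was the 1 gene whose Triple_KO and WT libraries overlapped at 0 h, at 1.84, 3.32, 8.10 and 3.85 FPM against 7.40, 10.1, 17.1 and 13.3 FPM. At 8 h WT read 5.71, 1.00, 0 and 1.76 FPM and Triple_KO 8.06, 2.89, 3.83 and 0 FPM, so both groups reached 0. It passed the filter at 8 h through 1 Ythdf1_KO and 1 Triple_KO replicate mean. The difference was 0.55 ± 0.54 (adjusted p = 0.449), with a 95% interval of -0.53 to 1.63, and took the other sign without WT replicate B (-0.02) or Triple_KO replicate A (-0.17). No difference was detectable at this depth.

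The other 2 genes are linked to protein turnover and cell death. Kbtbd11 is a BTB and kelch-repeat protein, of the kind that brings substrates to cullin 3 ubiquitin ligases (chr8:15011025-15033333). At 0 h WT had the highest mean, with libraries at 22.8, 15.2, 22.4 and 28.0 FPM. The Ythdf1_KO libraries, at 7.69, 11.1, 3.65 and 3.18 FPM, were as low as those of Triple_KO, at 6.75, 4.43, 7.56 and 5.30 FPM. Ythdf2_KO read 6.77, 10.8, 10.5 and 9.19 FPM. The Ythdf3_KO libraries, at 13.4, 16.6, 17.9 and 13.8 FPM, overlapped WT. Kbtbd11 passed the filter at 8 h through 1 Ythdf2_KO and 1 Triple_KO replicate mean. At 4 h WT had dropped to 5.16 and 7.18 FPM and Triple_KO read 5.87 and 7.25 FPM, and at 8 h the values were 2.28, 3.01, 5.91 and 2.64 FPM and 9.52, 2.89, 4.46 and 2.35 FPM. The groups overlapped at both times. The difference was 0.08 ± 0.57 (adjusted p = 0.937) at 4 h and 0.29 ± 0.52 (adjusted p = 0.692) at 8 h, and both took the other sign with TMM or median scaling and with edgeR.

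Xaf1, an interferon-inducible binding partner of the caspase inhibitor XIAP (chr11:72301461-72313733), read 20.4, 17.7, 22.4 and 22.4 FPM in WT at 0 h and 6.13, 2.77, 5.94 and 5.78 FPM in Triple_KO. The single knockouts lay between them in mean but reached 22.1 FPM in 1 Ythdf3_KO library. At 8 h WT read 18.3, 10.0, 19.4 and 11.4 FPM and Triple_KO 5.13, 2.16, 10.2 and 7.65 FPM, and the highest Triple_KO library slightly passed the lowest WT library. The difference from WT was -1.21 ± 0.36 (adjusted p = 0.00670), which did not pass without WT replicate B (adjusted p = 0.0629), without Triple_KO replicate A (-0.63, adjusted p = 0.304) or without the filter (adjusted p = 0.0776). At 4 h it was -1.65 ± 0.40 (adjusted p = 0.00101), and did not pass without WT replicate A (adjusted p = 0.0783) or Triple_KO replicate B (adjusted p = 0.0514).

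**Figure D2:**
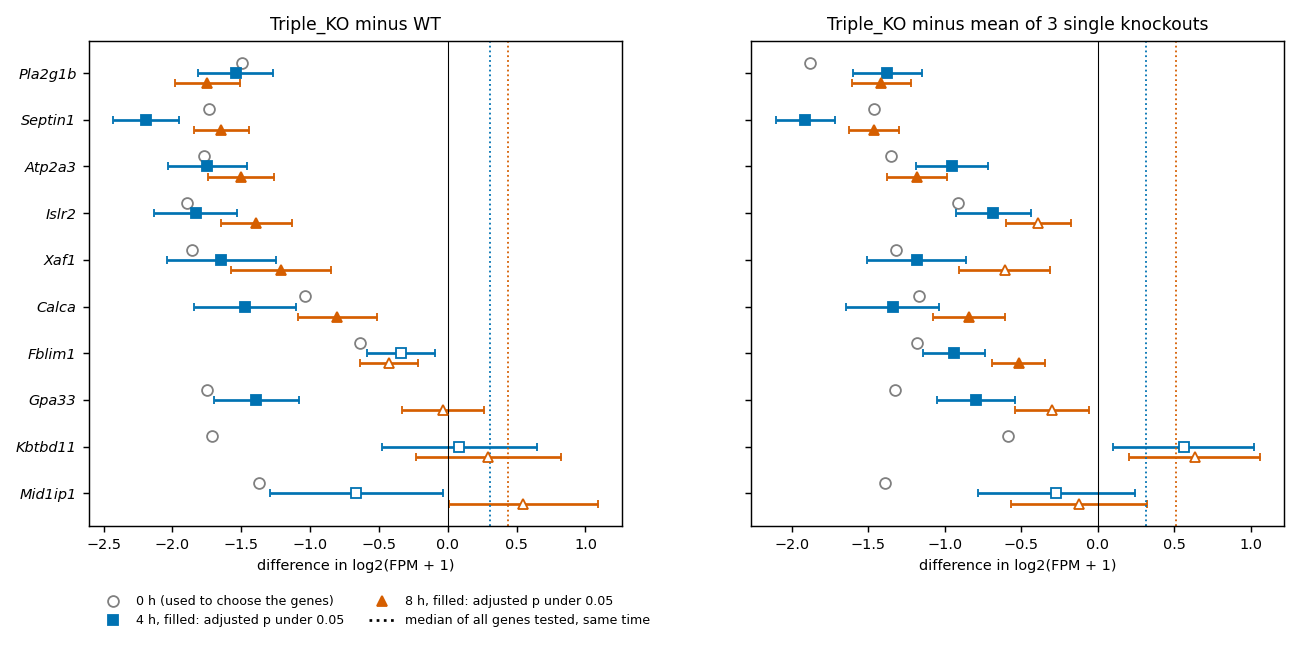
Difference of Triple_KO from WT (left) and from the mean of the 3 single knockouts (right) in log2(FPM + 1) for each gene, with SE bars at 4 h and 8 h from limma on 2 replicate means per genotype. Open grey circles are the 0 h values that chose the genes, filled symbols have an adjusted p under 0.05, dotted lines are the medians of all genes tested, and Gpa33, Kbtbd11 and Mid1ip1 move from the left at 0 h to near or above 0 at 8 h against WT.

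Across the 10 genes, 7 were lower in Triple_KO than in WT at 4 h, where 2.02% of 8002 genes were called lower, and 6 at 8 h, where 1.71% of 7033 genes were. All 10 passed the filter at both times. The genes called at 4 h were Islr2 (-1.83 ± 0.30), Gpa33, Calca, Pla2g1b (-1.54 ± 0.27), Atp2a3 (-1.75 ± 0.29), Septin1 and Xaf1, and those called at 8 h were the same without Gpa33. The median of the 10 was -1.51 at 4 h and -1.01 at 8 h, while the median of all genes tested was 0.30 and 0.44. Relative to that median the called genes at 8 h stood between -1.24 (Calca) and -2.19 (Pla2g1b). Every Triple_KO library lay below every WT library for 9 of the 10 genes at 4 h (12.5% of all genes) and for 5 at 8 h (1.81%). The 9 included Mid1ip1 and Fblim1, neither of them called at 4 h. Mid1ip1 passed the filter at 4 h through 1 WT and 1 Ythdf1_KO replicate mean, with 5 and 7 reads in WT and 3 and 6 in Triple_KO. For Fblim1 the highest Triple_KO library, at 20.63 FPM, lay just under the lowest WT library, at 20.65 FPM.

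The shift of all genes depends on the scale. Most called genes were higher in Triple_KO, 2359 against 120 lower at 8 h and 1312 against 162 at 4 h. With TMM scaling the split was 837 higher and 630 lower at 8 h (median of all genes 0.08) and 581 and 776 at 4 h, and with median scaling 619 and 992 at 8 h and 499 and 915 at 4 h. Reads of listed genes made up 41.1 ± 1.48% (SD, n = 4) of a Triple_KO library at 8 h and 33.2 ± 0.27% of a WT library, and 44.3 ± 0.72% and 43.3 ± 0.65% at 0 h. Among the 10 genes both scalings left the 6 calls at 8 h and the 7 at 4 h in place and added Fblim1, at 8 h under both and at 4 h under median scaling. Its difference at 4 h was then -0.71 (adjusted p = 0.0323).

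**Figure D3:**
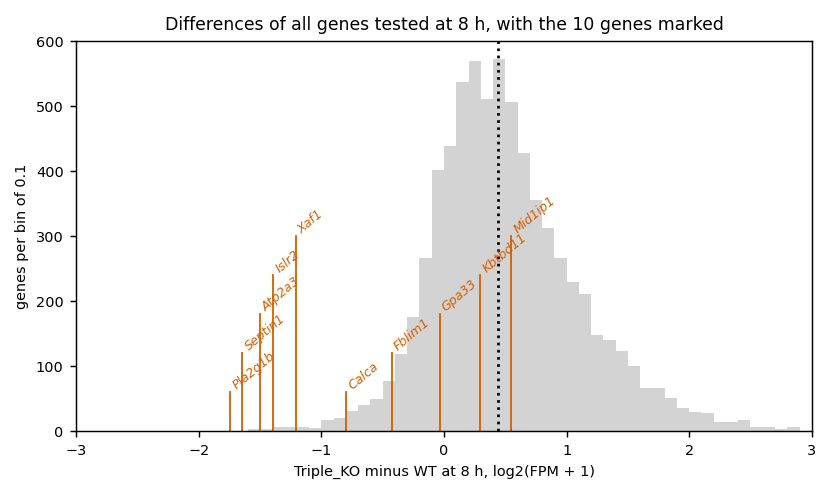
Histogram of the difference between Triple_KO and WT at 8 h in log2(FPM + 1) for the genes tested (7033, bins of 0.1, vertical axis in genes), with an orange line at the value of each of the 10 genes, whose height only spaces the names. The dotted line is the median of all genes, 0.44, and Pla2g1b, Septin1, Atp2a3, Islr2 and Xaf1 lie in the far left tail while Gpa33, Kbtbd11 and Mid1ip1 lie within the bulk.

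Against the mean of the 3 single knockouts, Triple_KO was lower for 8 of the 10 genes at 4 h (2.26% of all genes were called lower) and for 5 at 8 h (1.29%). At 4 h the genes not called were Mid1ip1 (-0.27 ± 0.51) and Kbtbd11 (0.56 ± 0.46). At 8 h Calca (-0.84 ± 0.23), Pla2g1b, Atp2a3, Septin1 and Fblim1 were called. Triple_KO did not overlap the single knockouts in 7 genes at 4 h (3.62% of all genes) and in 3 at 8 h (0.256%), namely Calca, Atp2a3 and Septin1. The calls of Islr2 (-0.68 ± 0.25 (adjusted p = 0.0332)) and Gpa33 (-0.79 ± 0.25 (adjusted p = 0.0158)) at 4 h were the least firm, since each failed without either Triple_KO replicate (adjusted p = 0.0929 to 0.267). They also failed without the filter (adjusted p = 0.0664 and 0.0594), Islr2 without Ythdf1_KO replicate A, Ythdf2_KO replicate B or Ythdf3_KO replicate A (adjusted p = 0.0515 to 0.0907), and Gpa33 without Ythdf2_KO replicate A (adjusted p = 0.0662). Without Triple_KO replicate B the number called at 4 h fell to 4, with Atp2a3 (adjusted p = 0.134) and Xaf1 (adjusted p = 0.181) lost as well. Calca at 8 h was not called without Triple_KO replicate B (adjusted p = 0.105). With TMM scaling, median scaling or edgeR on recovered reads 8 genes were lower at 8 h, Islr2, Gpa33 and Xaf1 being added. The split of all called genes, 3552 higher and 91 lower at 8 h and 1586 and 181 at 4 h, became 902 and 697 at 8 h and 500 and 838 at 4 h with TMM scaling, and 607 and 1080 and 398 and 1063 with median scaling.

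Single knockouts were next set against WT, with the same WT libraries in each comparison. Islr2 was called lower in Ythdf2_KO and Ythdf3_KO at both times and in Ythdf1_KO at neither: at 8 h by -1.23 ± 0.26 (adjusted p = 6.50e-04) in Ythdf2_KO and -1.02 ± 0.26 (adjusted p = 0.0125) in Ythdf3_KO, and by -0.76 ± 0.26 in Ythdf1_KO, which did not pass (adjusted p = 0.110). At 4 h the values were -1.26 ± 0.30 (adjusted p = 0.00560), -1.07 ± 0.30 (adjusted p = 0.0406) and -1.11 ± 0.30 (adjusted p = 0.0572). The uncalled Ythdf1_KO difference at 4 h was no smaller than the called Ythdf3_KO one, with unadjusted limma p of 3.51e-04 and 5.78e-04. Single knockouts were not tested against each other, so these calls do not set 1 knockout apart from another. Lower genes made up 5.82%, 2.45% and 0.654% of all genes in Ythdf2_KO, Ythdf3_KO and Ythdf1_KO at 8 h, and 0.987%, 0.937% and 0.187% at 4 h. The 4 h libraries of Islr2 were 43.0 and 43.9 FPM in WT, 20.1 and 19.0 in Ythdf1_KO, 13.9 and 22.1 in Ythdf2_KO and 21.7 and 18.8 in Ythdf3_KO, so no single-knockout library reached WT. The Ythdf3_KO calls failed without either WT replicate (adjusted p = 0.0831 to 0.196), without Ythdf3_KO replicate A (adjusted p = 0.3 at 8 h and 0.105 at 4 h), at 4 h without Ythdf3_KO replicate B (adjusted p = 0.204), with median scaling (adjusted p = 0.0722 at 8 h and 0.0581 at 4 h) and without the filter (adjusted p = 0.101 and 0.15). At 8 h the Ythdf3_KO call also failed with TMM scaling (adjusted p = 0.0565). The Ythdf2_KO call failed at 4 h without WT replicate A (adjusted p = 0.0658), WT replicate B (adjusted p = 0.0645) or Ythdf2_KO replicate A (adjusted p = 0.226), and with DESeq2 (adjusted p = 0.109), while at 8 h it held under all alternatives run. Atp2a3 was the 1 other gene called, in Ythdf2_KO at 4 h (-1.14 ± 0.29 (adjusted p = 0.0105)), and that call failed without either WT replicate (adjusted p = 0.0852 and 0.0882) or Ythdf2_KO replicate A (adjusted p = 0.264), without the filter (adjusted p = 0.0715) and with DESeq2 (adjusted p = 0.177). Over all genes the split of higher and lower calls at 8 h was 83 and 46 in Ythdf1_KO, 67 and 409 in Ythdf2_KO and 18 and 172 in Ythdf3_KO, and with TMM scaling 60 and 88, 211 and 109, and 36 and 39. At 4 h it went from 29 and 15 to 33 and 27 in Ythdf1_KO and from 53 and 75 to 90 and 60 in Ythdf3_KO.

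Septin1 was called in no single knockout at 8 h. Its differences from WT at 8 h were -0.11 ± 0.20 in Ythdf1_KO (95% interval -0.50 to 0.29), -0.43 ± 0.20 in Ythdf2_KO (-0.82 to -0.03) and -0.01 ± 0.20 in Ythdf3_KO (-0.41 to 0.39). None passed, and the last was near 0 and turned to 0.08 with TMM and 0.09 with median scaling. All 3 intervals exclude the Triple_KO difference of -1.65, and the direct test of Triple_KO against the single knockouts was given above. No gene of the 10 was called in Ythdf1_KO at 8 h or 4 h in the main limma fits, with 4 and 1 of them at an unadjusted p under 0.05, beside 971 of 7033 and 778 of 8002 genes. Of the 4 at 8 h, Islr2 and Pla2g1b were lower, and Gpa33 (0.61 ± 0.30) and Mid1ip1 (1.15 ± 0.54) were higher. By edgeR Islr2 was called in Ythdf1_KO at both times (-0.85, adjusted p = 0.0373 at 8 h, and -1.18, adjusted p = 0.00592 at 4 h), and DESeq2 called none of the 10 but gave Islr2 no adjusted p there.

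The course in WT over time set Kbtbd11, Mid1ip1 and Gpa33 apart from the other 7 genes. From 0 h to 8 h WT levels changed by -2.41 for Kbtbd11, -2.34 for Mid1ip1 and -1.84 for Gpa33 on the log2(FPM + 1) scale, each more than the median of all genes in WT, -0.81. In Triple_KO the same genes changed by -0.40, -0.42 and -0.13, where the median was -0.39. The other 7 genes lost little in WT, from -0.66 for Islr2 to a gain of 0.57 for Pla2g1b, and from -0.16 for Septin1 to 0.39 for Calca in Triple_KO. FPM is scaled to library totals, so with no new transcription a gain is a gain in share of the library. Listed genes made up 43.3% of a WT library at 0 h and 33.2% at 8 h, and 44.3% and 41.1% of a Triple_KO library. In WT, 7 of the 10 kept their level better than the median gene, and Kbtbd11 and Mid1ip1 kept 15.7% and 17.7% of their WT level at 8 h. These changes start at 0 h, where the genes were chosen, and have no test.

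**Figure D4:**
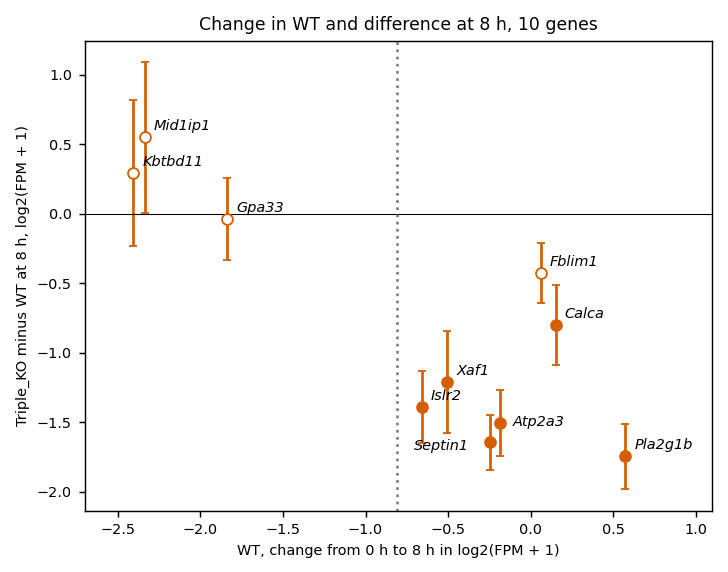
Change in WT from 0 h to 8 h (horizontal axis) against the difference of Triple_KO from WT at 8 h (vertical axis, SE bars), both in log2(FPM + 1), 1 point per gene, filled where the difference has an adjusted p under 0.05. Kbtbd11, Mid1ip1 and Gpa33, at -1.84 or less on the horizontal axis, lie near or above 0 on the vertical axis, and the dotted line is the WT median of all genes, -0.81.

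The step from 4 h to 8 h does not involve the libraries that chose the genes and was tested. In WT, Gpa33 fell by 1.35 ± 0.31 (adjusted p = 6.90e-04) and was the 1 gene of the 10 called, where 18.2% of 8200 genes fell (15 higher against 1494 lower calls, which TMM scaling turned to 107 against 200). That call failed with median scaling (-0.95, adjusted p = 0.0549), with edgeR (-0.83, adjusted p = 0.0845) and without WT replicate B (-0.96, adjusted p = 0.166), and DESeq2 gave it no adjusted p. The change in Triple_KO minus that in WT was 1.35 ± 0.43 (adjusted p = 0.166) for Gpa33, the 1 gene of the 10 with an unadjusted p under 0.05. No gene of the 10 passed that test by limma, edgeR or DESeq2, among 38 genes called by limma in all (0.451% higher and 0.0122% lower).

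Genes with roles near those of the 10 were counted at 8 h beside all genes, of which 33.5% were called higher and 1.71% lower in Triple_KO than in WT (11.1% and 8.38% with TMM scaling, 8.80% and 14.1% with median scaling). The counts of these lists moved with the scaling as those of all genes did. None of 8 measured genes of SERCA and store-operated calcium entry was called (median 0.21, against 0.44 for all genes), but the chaperones Calr and Canx, named after their values were seen, fell with TMM or median scaling. Atp2a2, the widespread SERCA2, stood at 0.23 ± 0.17 (adjusted p = 0.302). Of 6 other septins 2 were called higher and none lower (median 0.30), while none was higher and 1, Septin2, was lower with either scaling. Septin9, at 0.42 ± 0.12 (adjusted p = 0.00517), lay under the median of all genes and was at 0.04 with TMM and -0.11 with median scaling, neither called. Septin2 and Septin7, core subunits of septin filaments, stood at 0.02 ± 0.13 and 0.18 ± 0.15, and Septin2 at -0.36 with TMM scaling (adjusted p = 0.0327) and -0.51 with median scaling (adjusted p = 0.00225).

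Among 23 filamin and focal adhesion genes 2 were called higher and 1 lower (median 0.33), against none higher and 5 or 7 lower with TMM or median scaling. The actin crosslinker Flna stood at 0.33 ± 0.10 (adjusted p = 0.00607), under the median of all genes, and at -0.05 and -0.20 with the scalings, neither called. The parvin Parvb, named after its value was seen, was lower, at -0.95 ± 0.29 (adjusted p = 0.00787) and also with both scalings (-1.32 and -1.43). Lipogenesis genes were called higher in 4 and lower in 1 of 17 (median 0.24), and in none and 1 or 2 with the scalings. Acetyl-CoA carboxylase, Acaca, stood at 0.69 ± 0.32 (adjusted p = 0.0828) and fatty acid synthase, Fasn, at 0.24 ± 0.12 (adjusted p = 0.112). Acly, ATP citrate lyase, was the 1 to fall (-0.28 ± 0.10, adjusted p = 0.0214), as with both scalings.

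Of 9 interferon-stimulated genes or partners of Xaf1 2 were called higher and 2 lower (median 0.54), and with either scaling none was higher. The 2 lower genes, called under both scalings too, were the antiviral membrane proteins Ifitm2 (-0.32 ± 0.10, adjusted p = 0.00738) and Ifitm3 (-0.31 ± 0.11, adjusted p = 0.0235), named after their values were seen. Xiap stood at 0.54 ± 0.48 (adjusted p = 0.386). BTB-kelch and cullin 3 genes were called higher in 9 of 16 and lower in none (median 0.96), and in 2 and none with either scaling. Keap1, the sensor of oxidative stress in that family, stood at 1.42 ± 0.42 (adjusted p = 0.006), a call lost with TMM (1.11, adjusted p = 0.0674) and median scaling (0.94, adjusted p = 0.107), and Cul3 at 0.25 ± 0.37 (adjusted p = 0.636). None of 7 genes of phospholipases A2, counting the regulatory subunit Pafah1b1 (median 0.77), or of 2 genes of CGRP and adrenomedullin signalling was called under any of the 3 scalings. Of 10 junctional immunoglobulin-family or tight junction genes 2 were called higher and none lower (median 0.44), against 1 higher and 2 or 3 lower with TMM or median scaling, and no other leucine-rich repeat and immunoglobulin gene passed the filter at 8 h.

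Over the 30 means of a genotype, time and replicate, the genes were also matched with the most similar of 9078 genes by Pearson correlation of log2(FPM + 1), as a description. Septin1 and Pla2g1b shared the same nearest gene, Ooep, a factor of the maternal subcortical complex of oocytes (r = 0.93 and 0.88). Atp2a3 was nearest to Septin1 (r = 0.87) and Calca to Pla2g1b (r = 0.84), so 2 of the 10 had another of the 10 as nearest. Gpa33 was nearest to Hmces (r = 0.89), a sensor of abasic sites in DNA, Islr2 to the laminin Lama1 (r = 0.88) and Xaf1 to Cisd3 (r = 0.85). Mid1ip1 followed the nuclear importin Kpna2 (r = 0.83), Fblim1 the dehydrogenase Hsd17b14 (r = 0.82) and Kbtbd11 the growth factor Pdgfa (r = 0.81). The means share genotypes, times and the low Triple_KO values that chose the genes. Among the 45 pairs within the 10, r ran from -0.13 to 0.87.

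Gene structure, which the choice did not use, is given for all 10 beside the 8281 genes with a transcript model. The 10 had a median of 5.5 exons against 9 for all genes, a coding length of 1031 bases against 1332 and a 3′ UTR of 1256 bases against 937. They ran from Pla2g1b, with a transcript of 557 bases and a 3′ UTR of 95 bases, to Kbtbd11, with 6973 and 4029 bases in 2 exons. An internal exon of at least 400 bases was present in 1 of the 10, Atp2a3, and in 18.2% of all genes. GGACT occurred somewhere in all 10 transcripts and in 91.6% of all.

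Promoters of 8 of the 10 were matched in RefSeq (GRCm38.p6, 250 bases before to 50 after the start). The observed over expected frequency of CpG, taken as the highest over a gene's promoters, was at least 0.6 in 3 of them, Atp2a3 (0.71), Mid1ip1 (0.65) and Islr2 (0.64), against 82.7% of 6952 genes. In Fblim1 and Calca it was 0.41 each, in Xaf1 0.27, in Gpa33 0.23 and in Pla2g1b 0.13, and the median of the 8 was 0.41 against 0.82 for all. Promoters rich in CpG are typical of broadly expressed genes, and those poor in CpG of genes with tissue-restricted expression. Chromosome 11 holds both Xaf1 and Atp2a3, with Smtnl2, Mybbp1a, Spns2, Ankfy1 and Zzef1 between them among genes measured at 0 h. At 4 h all 5 passed the filter and differed by 0.15 to 0.81 in Triple_KO from WT, and at 8 h Smtnl2, Mybbp1a and Ankfy1 passed, at 0.25 to 0.73, beside medians of all genes of 0.30 and 0.44. The other 10 measured genes around the pair, on its outer sides, of which 9 passed at 4 h and 7 at 8 h, ran from -0.32 (Pimreg) to 2.21 (Aspa) and from -0.33 (Slc13a5) to 1.90 (Ctns).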

How the data were processed

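The deposited table holds FPM, the same unit as RPM, for each RefSeq transcript in each of 50 libraries, scaled by the authors to library totals and not corrected for length. The tools CASAVA 1.8.2 and Bowtie2, with build mm10, come from the submitters' processing notes, and further steps are not given in the sources used here. Whole reads were recovered from the FPM steps, with 100.0% of values within 0.1 of a whole read in the library with the lowest share. Of 22338 transcripts, 21725 were named through RefSeq and 124 through GENCODE; 2169 identical rows were dropped and distinct rows of a gene summed, which gave 19455 genes.

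After log2(FPM + 1), each pair of duplicate libraries was replaced by its mean, so a genotype had 2 replicates at a time. Genes with at least 5 FPM in 2 replicate means were tested with limma 3.58 (R 4.3, trend and empirical Bayes, 10 means per time or 20 over both times), with Benjamini-Hochberg adjusted p-values over all genes tested and a threshold of 0.05. Adding 1 FPM understates changes of low genes. There were 12 comparisons. Scripts were tested on simulated data.

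Alternatives were TMM and median scaling, pseudocounts of 0.5 and 5 FPM, no filter or 10 FPM, a fit on all times, a replicate block, edgeR 4.0 and DESeq2 1.42 on recovered reads, and leaving out each replicate. Replicate letters were not used to pair samples in the main fits. Differences of A from B correlated between genotypes at -0.021 to 0.042 at 4 h and -0.037 to 0.026 at 8 h. Genes near the filter have few reads, so counting error could hide a pairing.

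The text names the 10 genes, the nearest gene of each by correlation, the 5 coding genes with the largest fall at 0 h outside the 10, and set partners from lists of related genes. Members and lists were chosen with earlier results of these data known.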

Additional observations from a re-analysis of the deposited data

Results flagged for a closer look

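Of 100 groups of 4 libraries (10 genes, 5 genotypes, 0 h and 8 h), 5 had a library far from the other 3 by Dixon's criterion, which chance gives in about 1 in 20 groups. Islr2 read 8.40 FPM in 1 Ythdf3_KO library at 8 h, where the others read 18.3 to 18.7 FPM. Gpa33 read 24.1 FPM in 1 Ythdf1_KO library at 0 h, against 36.1 to 37.2 FPM in the others. Calca read 10.1 FPM in 1 Ythdf1_KO library at 8 h, against 13.5 to 13.8 FPM. Septin1 read 50.2 FPM in 1 Ythdf1_KO library at 8 h, against 30.3 to 32.4 FPM. Xaf1 read 2.77 FPM in 1 Triple_KO library at 0 h, against 5.78 to 6.13 FPM.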

How the results depend on the processing

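The 6 called differences of Triple_KO from WT at 8 h kept their negative sign under every alternative run. Single genes were followed over the alternatives for 55 values. These were all 10 genes in Triple_KO against WT or the single knockouts, and Islr2 and Septin1 in each single knockout against WT. Gpa33 in the step from 4 h to 8 h and any other called gene were added. Among the alternative values 735 kept their sign and their side of the threshold, 47 lost a call and 25 gained one. Another 20 changed sign, none from a called value. Gains of genes not followed are not in these counts. The causes were not tested. For Triple_KO against WT at 8 h, the count of genes called was 2479 and became 1467 with TMM scaling, 1611 with median scaling, 969 with DESeq2 and 1423 to 1838 without 1 replicate. Here the difference of Kbtbd11, 0.29, took another sign, at -0.00847 with TMM scaling, -0.12 with median scaling and -0.0298 with edgeR. In that comparison the difference of Gpa33, -0.0366, took another sign, at -0.37 to 0.30 without 1 replicate. Also, the difference of Mid1ip1, 0.55, took another sign, at -0.17 to 1.26 without 1 replicate. For Triple_KO against single knockouts at 8 h, the count of genes called was 3643 and became 1599 with TMM scaling, 1687 with median scaling, 2210 with edgeR, 1131 with DESeq2 and 2113 to 3669 without 1 replicate. There, the number of the 10 genes called lower was 5 and became 8 with TMM scaling, with median scaling and with edgeR. Here the difference of Mid1ip1, -0.12, took another sign, at 0.012 with a pseudocount of 5 FPM and -0.84 to 0.59 without 1 replicate. For Triple_KO against WT at 4 h, the count of genes called was 1474 and became 970 without the filter, 2465 in a fit on all times, 612 with DESeq2 and 723 to 1089 without 1 replicate. In that comparison the difference of Kbtbd11, 0.0845, took another sign, at -0.19 with TMM scaling, -0.24 with median scaling, -0.20 with edgeR and -0.12 to 0.29 without 1 replicate. For Triple_KO against single knockouts at 4 h, the count of genes called was 1767 and became 2851 in a fit on all times, 699 with DESeq2 and 640 to 1774 without 1 replicate. Also, the number of the 10 genes called lower was 8 and became 4 to 8 without 1 replicate. For Ythdf1_KO against WT at 8 h, the count of genes called was 129 and became 14 without the filter, 82 with DESeq2 and 52 to 107 without 1 replicate. There, the number of the 10 genes called lower was 0 and became 1 with median scaling and with edgeR and 0 to 1 without 1 replicate. Here the difference of Septin1, -0.11, took another sign, at -0.26 to 0.0454 without 1 replicate. For Ythdf2_KO against WT at 8 h, the count of genes called was 476 and became 286 with median scaling, 136 without the filter, 148 with DESeq2 and 217 to 293 without 1 replicate. For Ythdf3_KO against WT at 8 h, the count of genes called was 190 and became 75 with TMM scaling, 54 with median scaling, 33 without the filter, 100 with edgeR, 38 with DESeq2 and 66 to 114 without 1 replicate. In that comparison the number of the 10 genes called lower was 1 and became 0 with TMM scaling, with median scaling, without the filter and with DESeq2 and 0 to 1 without 1 replicate. Also, the difference of Septin1, -0.00987, took another sign, at 0.0836 with TMM scaling, 0.091 with median scaling, 0.0644 with edgeR and -0.0332 to 0.0135 without 1 replicate. For Ythdf1_KO against WT at 4 h, the count of genes called was 44 and became 11 without the filter, 222 in a fit on all times, 13 with DESeq2 and 13 to 32 without 1 replicate. There, the number of the 10 genes called lower was 0 and became 1 with TMM scaling, with a pseudocount of 5 FPM, with a filter of 10 FPM, in a fit on all times and with edgeR. For Ythdf2_KO against WT at 4 h, the count of genes called was 207 and became 79 without the filter, 576 in a fit on all times, 62 with DESeq2 and 108 to 143 without 1 replicate. Here the number of the 10 genes called lower was 2 and became 1 without the filter, 0 with DESeq2 and 0 to 2 without 1 replicate. For Ythdf3_KO against WT at 4 h, the count of genes called was 128 and became 31 without the filter, 372 in a fit on all times, 34 with DESeq2 and 51 to 98 without 1 replicate. In that comparison the number of the 10 genes called lower was 1 and became 0 with median scaling, without the filter and with DESeq2 and also 0 in each fit without 1 replicate. In WT at 8 h against 4 h, the count of genes called was 1509 and became 307 with TMM scaling, 405 with median scaling, 900 without the filter, 371 with edgeR, 213 with DESeq2 and 545 to 620 without 1 replicate. Also, the number of the 10 genes called lower was 1 and became 0 with median scaling, with edgeR and with DESeq2, 2 in a fit on all times and 0 to 1 without 1 replicate. For Triple_KO minus WT in the change from 4 h to 8 h, the count of genes called was 38 and became 21 with TMM scaling, 1 with median scaling, 13 without the filter, 98 in a fit on all times, 5 with edgeR, 2 with DESeq2 and 5 to 13 without 1 replicate. DESeq2 gave no adjusted p for Islr2 in Ythdf1_KO or Ythdf3_KO against WT at either time, nor for Gpa33 in WT at 8 h against 4 h, so its counts of 0 for Ythdf3_KO and WT are not lost calls. With a replicate block, which assumes that letters pair samples although their deviations do not correlate, 2465 genes and 6 of the 10 were called in Triple_KO against WT at 8 h, and no count moved by over 1.5 times and no call of the 10 genes changed in any comparison. Leaving out a replicate leaves 1 mean in a group, which is then assumed to vary like the others. Mid1ip1 and Kbtbd11 at 8 h are near the floor of single reads.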
